A study of Mus musculus with 4 samples.

Results

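Cxcl9 and Cxcl10 encode 2 of the 3 chemokines that bind the receptor CXCR3, and their transcripts were followed here in single cells of the mouse small-intestinal crypt. The genes were chosen by symbol from a family of 3 ligands, and 2 of the 3 symbols matched a row among the 31053 gene rows of the count tables. Cxcl11 was not analysed here. The study compared C57BL/6 recipients of BALB/c marrow (allogeneic, described by the submitters as mice with graft-versus-host disease) with C57BL/6 recipients of C57BL/6 marrow (syngeneic, described as controls). All recipients were female, 8 to 12 weeks old and lethally irradiated, and crypt cells were taken on day 7 after transplantation. Each group has 2 libraries, each a pool of 3 to 4 mice, made with 10x Genomics droplet chemistry. The difference between groups is therefore one of donor strain on a shared background of irradiation and transplantation, and no unirradiated mouse was included. Any spread given is between 2 pools. Every library name starts with the letters KO, and no label gives their meaning.

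CXCL9, CXCL10 and CXCL11 are small secreted chemokines that attract activated T cells and NK cells through CXCR3. Interferon gamma, released mainly by those same lymphocytes, is their classic inducer: it acts through its receptor and the transcription factor IRF1, and CXCL9 depends on it most strictly, whereas CXCL10 also responds to type I interferon and to NF-kB signals. In the C57BL/6 strain the Cxcl11 reading frame is disrupted, so the recipients' own cells have Cxcl9 and Cxcl10 as their working ligands. This does not cover cells from the BALB/c donors.

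The 3 genes lie side by side on the minus strand of chromosome 5 (GRCm38, GENCODE M21). Cxcl9 (ENSMUSG00000029417) spans 92321347 to 92328079, Cxcl10 (ENSMUSG00000034855) spans 92346638 to 92348889, and Cxcl11 (ENSMUSG00000060183), annotated as a polymorphic pseudogene, spans 92359544 to 92365485. Art3 (92331827 to 92414628) runs on the plus strand across both Cxcl10 and Cxcl11. The 250 bases before each start are shown because the inducers named above act on this part of the genes. They are from RefSeq (GRCm38.p6), on the minus strand, at chr5:92328080-92328329 for Cxcl9 and chr5:92348890-92349139 for Cxcl10. Capitals mark every match to 4 motifs searched on both strands: the interferon-stimulated response element core (GAAA, any 2 bases, GAAA), the gamma-activated site TTCNNNGAA, the AP-1 site TGANTCA and the NF-kB consensus.
Cxcl9: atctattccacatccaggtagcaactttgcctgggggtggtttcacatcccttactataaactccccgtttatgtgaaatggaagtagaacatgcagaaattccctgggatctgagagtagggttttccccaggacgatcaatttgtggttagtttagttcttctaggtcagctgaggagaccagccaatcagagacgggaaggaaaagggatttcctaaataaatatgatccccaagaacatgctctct
Cxcl10: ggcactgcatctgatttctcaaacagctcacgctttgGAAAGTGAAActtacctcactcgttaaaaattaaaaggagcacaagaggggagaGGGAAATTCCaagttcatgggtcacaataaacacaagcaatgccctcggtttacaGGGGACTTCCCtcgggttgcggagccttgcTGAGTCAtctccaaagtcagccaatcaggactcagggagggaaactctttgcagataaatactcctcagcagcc
The Cxcl10 window held 1 match to the response element core, at positions -213 to -204 from the start (GAAAGTGAAA). It also held NF-kB consensus matches at -159 (GGGAAATTCC) and at -104 and -103, the latter pair overlapping and one of them matching on both strands, and 1 AP-1 match at -74 (TGAGTCA). Neither window held the gamma-activated site, and the Cxcl9 window held none of the 4. Of 32851 upstream windows of this length, 2.98% held the response element core, 7.02% the gamma-activated site, 7.25% the NF-kB consensus and 6.75% the AP-1 site. These are matches of letters, and a window without one says nothing about a factor's binding elsewhere.

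After filtering, 12196 of 16565 barcodes remained, with 2053 to 4815 cells per library and median depths of 3946 to 5182 UMIs (unique molecules counted). Of these, 11704 were epithelial, 474 T or NK-like and 18 myeloid-like, all 18 from allogeneic pools. Clusters were named from marker genes, and names carry the suffix "-like". Epithelial markers defined 7 classes, while 1978 epithelial cells stayed unnamed. Any pair of libraries shared 2 to 7 barcodes. Allogeneic 1 stood apart in RNA quality: 27.2% of its barcodes exceeded the mitochondrial limit of 20%, against 11.2 to 14.9% in the other 3. Several classes came from different clusters in the 2 groups. The progenitor-like class was mostly cluster 8 in syngeneic 1, syngeneic 2 and allogeneic 1 (427, 312 and 232 cells), and cluster 11 in allogeneic 2 (893 cells). Enterocyte-like cells came from clusters 0, 7 and 17 in the syngeneic pools, and mainly from cluster 20 in allogeneic 1 and clusters 14 and 21 in allogeneic 2.

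Across all epithelial cells both ligands were near zero in the syngeneic pools and abundant in the allogeneic ones. Cxcl9 stood at 1.93 and 2.24 CPM (UMIs scaled to a total of 1000000) in syngeneic 1 and 2, from 32 and 30 UMIs, and at 139 and 281.5 CPM in allogeneic 1 and 2, from 1894 and 6852 UMIs. Cxcl10 stood at 1.93 and 1.79 CPM in the syngeneic pools and at 75.1 and 159 CPM in the allogeneic pools. The groups did not overlap for either gene, and within the allogeneic group pool 2 was the higher for both. The share of all genes without overlap was not counted, here or in the classes below. Group means were 210 ± 100.7 CPM against 2.08 ± 0.218 for Cxcl9 and 117 ± 59.6 against 1.86 ± 0.0989 for Cxcl10 (SD, n = 2 pools). The fitted log2 fold change (edgeR) was 6.78 (SE 0.63) for Cxcl9 and 6.10 (SE 0.61) for Cxcl10. These genes were chosen for this difference, so it is given as a description with no test. For scale, 0.158% of 12034 genes tested in this comparison passed an adjusted p of 0.05. Without allogeneic 2 the log2 fold changes were 5.90 and 5.16.

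UMIs of both ligands were counted in all 7 epithelial classes of the allogeneic pools, at very unequal levels. Progenitor-like cells, the proliferating cells between stem and mature cells, had the highest level of both genes in both allogeneic pools among the named classes as clustered here. Cluster 11, which gave 893 of their 903 cells in allogeneic 2 and 152 of 384 in allogeneic 1, had Cxcl10 and Cxcl9 among its 10 leading genes and no marker of its own class there, so these levels are a description. Their Cxcl9 was 1.003 and 1.35 CPM in the syngeneic pools (3 UMIs each) against 171 and 507 CPM in the allogeneic pools, a ratio of pooled levels of 324 (149 to 883, 95% counting interval). Their Cxcl10 was 1.003, 7.19, 83.2 and 323 CPM in syngeneic 1, syngeneic 2, allogeneic 1 and allogeneic 2, with no overlap between groups. All 16 Cxcl10 UMIs of the syngeneic 2 progenitor-like cells came from 1 cell. Without that library the log2 fold change of Cxcl10 was 7.84 in place of 5.94 (SE 0.97), and with predicted doublets kept and the cells clustered again it was 9.69, while without allogeneic 2 it was 4.44. That of Cxcl9 was 8.34 (SE 0.76), and 7.12 without allogeneic 2. Intervals here and below cover counting error only.

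Paneth-like cells, the antimicrobial cells of the crypt base, combined very low syngeneic with high allogeneic values. Cxcl9 was 0.585 and 0.680 CPM in their syngeneic pools (2 UMIs each) and 145 and 331 CPM in their allogeneic pools, a ratio of 331 (128.5 to 1220). Cxcl10 in the same cells was 0.2925 and 0.340 CPM (1 UMI each) against 53.6 and 114 CPM, a ratio of 235 (64.1 to 1959). Stem-like cells, which renew the epithelium, had Cxcl9 at 4.55 and 2.54 CPM in the syngeneic and 81.9 and 230.5 CPM in the allogeneic pools, with a log2 fold change of 5.10 (SE 0.60), which was 7.85 with doublets kept and 6.94 with classes drawn per cell. Their Cxcl10 was a single UMI in syngeneic 1 and none in syngeneic 2 (limit 2.54 CPM for a count of 0), against 54.2 and 146 CPM. In each of these 3 classes the allogeneic pools were above both syngeneic pools, and allogeneic 2 was above allogeneic 1.

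Goblet-like cells, which make mucus, had nearly equal Cxcl9 in the 2 allogeneic pools as clustered, but 147.5 and 243 CPM when each cell was classed by its own marker scores. Most of them came from cluster 3 in allogeneic 1 (202 of 277 cells) and from cluster 19 in allogeneic 2 (105 of 156). Their Cxcl9 was 4.18, 3.26, 87.8 and 89.4 CPM in library order, a log2 fold change of 4.80 (SE 0.39), and their Cxcl10 was 4.18, 1.81, 39.6 and 68.4 CPM. Enterocyte-like cells, the mature absorptive cells, had the lowest level of both genes in both allogeneic pools. Cxcl9 there was 0.619 and 3.36 CPM against 14.4 and 34.5 CPM, a log2 fold change of 4.06 (SE 0.73), which was 5.64 without syngeneic 2 and 2.97 without allogeneic 2. Cxcl10 there was 3.71 and 0.672 CPM against 7.502 and 22.8 CPM, a log2 fold change of 3.23 (SE 0.76), which was 4.85 without syngeneic 1 and 1.83 without allogeneic 2.

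The rare secretory and sensory classes held few cells. The 27 hormone-producing enteroendocrine-like cells of allogeneic 1 had 20.3 CPM of Cxcl9 from 4 UMIs, and the 28 of allogeneic 2 had 479 CPM from 59 UMIs. Tuft-like cells, chemosensory cells with 34 and 42 cells in the allogeneic pools, had 43.2 and 170 CPM of Cxcl9 and 11.8 and 184 CPM of Cxcl10. Their syngeneic pools held no Cxcl10 UMI, so the pooled allogeneic level was at least 17.6-fold higher. Cxcl10 in enteroendocrine-like cells was 15.2 and 227 CPM, and in both classes the Cxcl10 value of allogeneic 1 rests on 3 UMIs.

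By mean allogeneic level the order for Cxcl9 was progenitor-like (339 ± 237.5 CPM, SD, n = 2), enteroendocrine-like (250 ± 324.5), Paneth-like (238 ± 131), stem-like (156 ± 105), tuft-like (106.5 ± 89.6), goblet-like (88.6 ± 1.18) and enterocyte-like (24.5 ± 14.3). For Cxcl10 it was progenitor-like (203 ± 169), enteroendocrine-like (121 ± 150), stem-like (100.3 ± 65.1), tuft-like (97.9 ± 122), Paneth-like (83.7 ± 42.6), goblet-like (54.0 ± 20.3) and enterocyte-like (15.1 ± 10.8). Each class overlapped the next in its 2 pool values except goblet-like over enterocyte-like, for both genes. As clustered, the first and last places were the same in both pools for both genes. When each cell was instead given a class from its own marker scores, the mean Cxcl9 of stem-like cells was 299 CPM and that of goblet-like cells 195 CPM, and with predicted doublets kept and the cells clustered again the stem-like mean was 511 CPM. The first place moved too. With doublets kept, stem-like cells were above progenitor-like cells for Cxcl9 (511 against 374 CPM) and Cxcl10 (464 against 202 CPM). With classes drawn per cell, Paneth-like cells were above progenitor-like cells for Cxcl9 (360 against 327 CPM). Enterocyte-like cells kept the lowest mean of both genes under both of these alternatives.

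**Figure D1:**
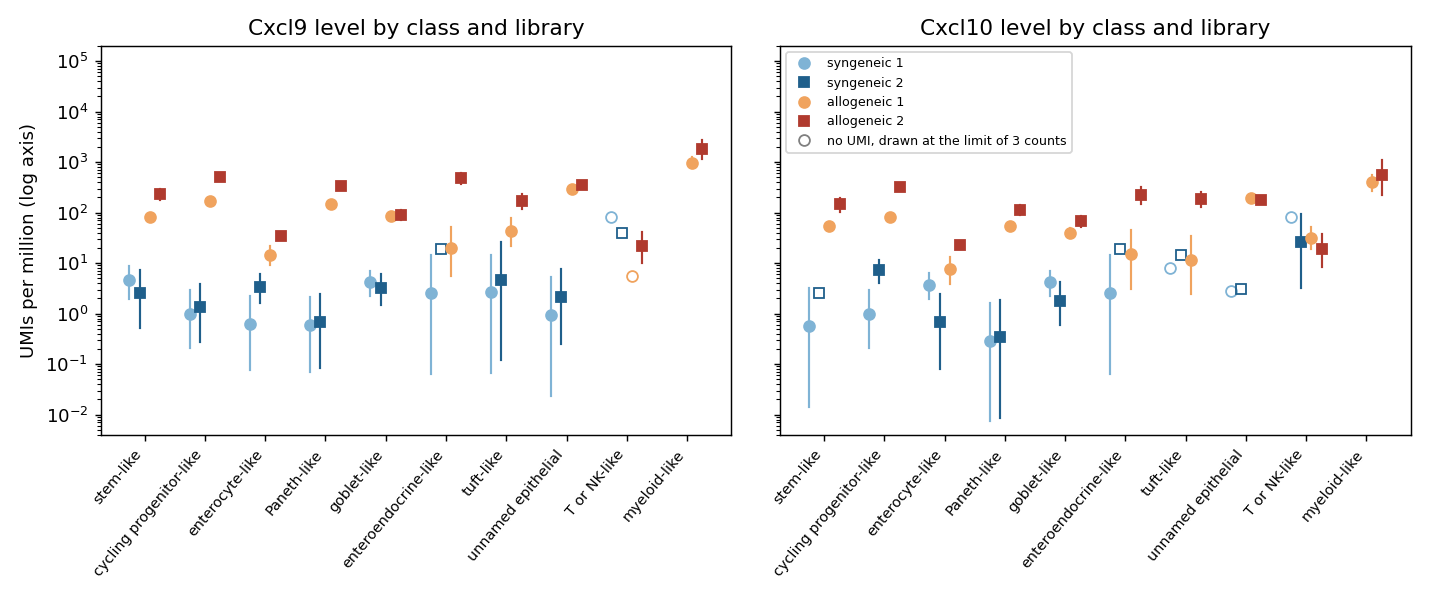
Level of Cxcl9 (left) and Cxcl10 (right) in CPM on a log axis, for each class (x axis) in each of the 4 libraries. Points are libraries, bars are 95% Poisson counting intervals, and open points are libraries with no UMI drawn at the limit of 3 counts. In the epithelial classes other than enterocyte-like, enteroendocrine-like and tuft-like cells, the allogeneic points lie between 39.6 and 507 CPM for both genes.

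A large part of the ligand transcripts came from cells without a class name. Cluster 6, with 1, 3, 106 and 786 cells in library order, had Cxcl9 at 445 and 519.5 CPM and Cxcl10 at 294 and 246.5 CPM in allogeneic 1 and 2. It held 30.1% and 40.0% of all Cxcl9 UMIs of these libraries in 5.16% and 16.3% of their cells. Its leading genes were Retnlb, an antimicrobial protein gene, Ido1, which degrades tryptophan, and Cxcl9 itself. Its best marker match was the progenitor list, and it was left unnamed because the secretory-lineage regulator Atoh1 was among its 10 leading genes. Since Cxcl9 is one of those leading genes, the level in this cluster is a description. The progenitor-like class held a further 35.9% and 45.9% of the Cxcl9 UMIs. Enterocyte-like cells held 1.17% and 3.79% of them, in 18.9% and 40.3% of the cells.

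The share of cells with a transcript followed the same lines once depth was made equal. Each cell was thinned to 2000 UMIs, and shallower cells were left out, which kept 2660, 2181, 1630 and 3970 epithelial cells. Cxcl9 was then seen in 0.338% and 0.459% of epithelial cells in the syngeneic pools and in 10.9% and 18.5% in the allogeneic pools. Cxcl10 was seen in 0.414% and 0.0917% against 4.48% and 11.5%. Without thinning the mean allogeneic shares were 22.6% for Cxcl9 and 12.8% for Cxcl10. Among progenitor-like cells thinned to this depth, Cxcl9 was seen in 69 of 377 cells (18.3%) in allogeneic 1 and in 306 of 830 (36.9%) in allogeneic 2, and Cxcl10 in 6.90% and 24.9%. Stem-like cells had Cxcl9 in 13.3% and 32.2%, Paneth-like in 8.38% and 29.3%, and goblet-like in 8.40% and 9.86%. Even in the class with the highest level, most cells showed neither gene at this depth.

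Free RNA in droplets can place a UMI in a cell that does not express the gene, and T or NK-like cells served as a gauge. At 2000 UMIs, Cxcl9 was seen in 0 of 84 of them in allogeneic 1, which allows a share of up to 3.57%, and in 1 of 75 (1.33%, exact binomial interval 0.0338 to 7.21%) in allogeneic 2. Their unthinned median depths were 1584 and 1606 UMIs, against 3566 and 3370 in enterocyte-like cells. Enterocyte-like cells had Cxcl9 in 1.64% (0.534 to 3.78%) and 3.83% (2.94 to 4.89%), and these shares were not distinguishable from the gauge at this depth. Cxcl10 was seen in 0.656% of enterocyte-like cells against 4.76% of T or NK-like cells in allogeneic 1, and in 3.52% against 2.67% in allogeneic 2. The T or NK-like cells of allogeneic 1 had Cxcl10 with no Cxcl9 UMI at this depth, so for Cxcl10 they are no gauge of free RNA. The Cxcl9 shares of progenitor-like and stem-like cells exceeded these limits of 3.57% and 7.21% in both pools, as did Paneth-like cells, whose lower bounds were 4.77% and 21.2%.

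**Figure D2:**
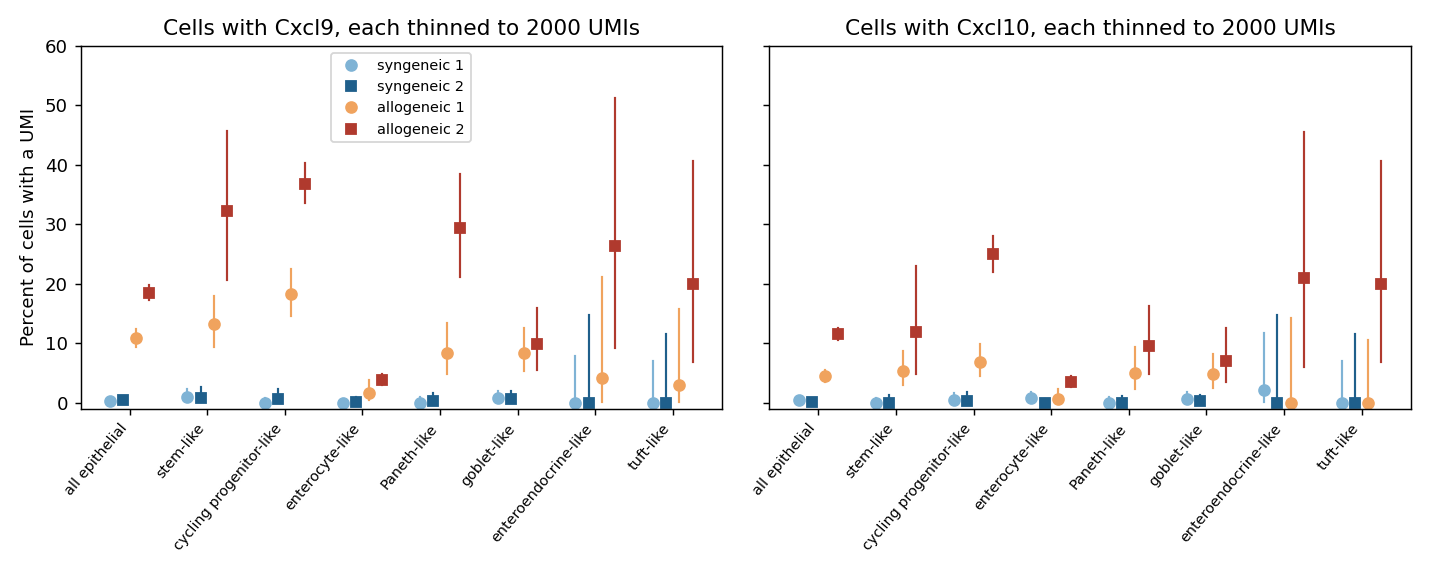
Percent of cells with at least 1 UMI of Cxcl9 (left) or Cxcl10 (right) after thinning every cell to 2000 UMIs, for all epithelial cells and each class in the 4 libraries. Bars are 95% exact binomial intervals. Syngeneic points lie near 0, and the progenitor-like points of allogeneic 2 stand at 36.9% and 24.9%.

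Transcripts were concentrated in few cells. In allogeneic 1, 1458 of 1812 epithelial cells had no Cxcl9 UMI, 152 had 1, and 46 had 10 or more, with a maximum of 100 in 1 cell. In allogeneic 2, 3425 of 4610 had none, 398 had 1, and 204 had 10 or more, with a maximum of 104. The 1% of epithelial cells with most Cxcl9 held 38.75% and 28.9% of its UMIs in allogeneic 1 and 2. Cxcl10 was more concentrated in allogeneic 1, where the top 1% of cells held 63.5% of its UMIs and 1 cell held 147, while in allogeneic 2 the top 1% held 31.8%. In the syngeneic pools no cell had more than 7 Cxcl9 UMIs, and Cxcl10 exceeded 6 only in the 1 progenitor-like cell with 16.

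**Figure D3:**
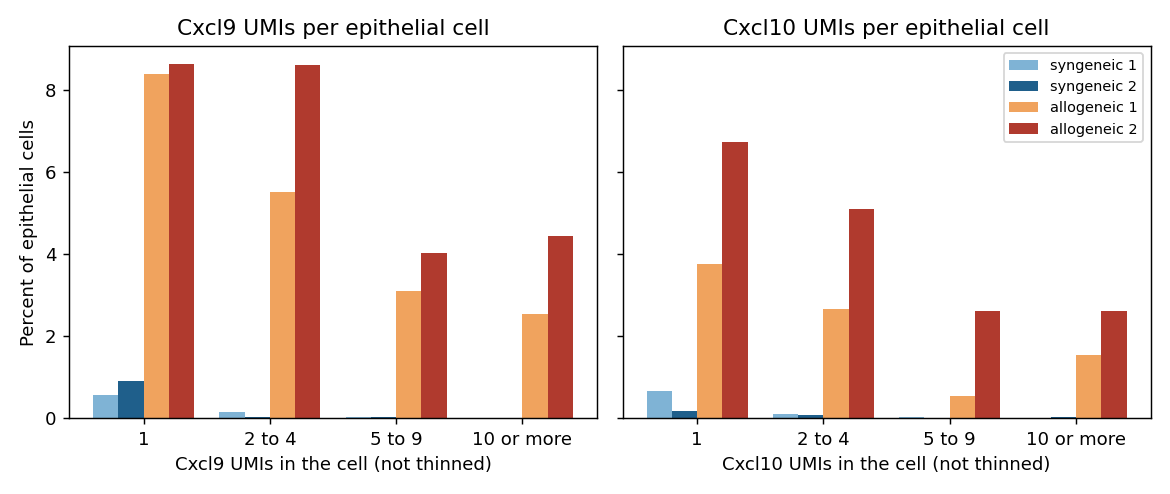
Percent of epithelial cells (y axis) with 1, 2 to 4, 5 to 9, or 10 or more UMIs of Cxcl9 (left) or Cxcl10 (right), without thinning, in the 4 libraries. Cells with none are not drawn. Of the allogeneic cells, 46 and 204 had 10 or more Cxcl9 UMIs, against none in the syngeneic pools.

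The balance between the ligands was similar in the whole epithelium of the 2 allogeneic pools. UMIs from the 3′ end do not scale with transcript length, but whether the 2 genes are captured equally well was not tested. Cxcl9 made up 64.9% (63.2 to 66.7%) of the UMIs of both genes in the epithelium of allogeneic 1 and 63.9% (62.9 to 64.8%) in allogeneic 2, although the total level differed between these pools. Stem-like cells had 60.2% and 61.2%. Paneth-like cells as clustered had 73.1% (67.6 to 78.0%) and 74.4% (69.4 to 79.0%), with both intervals above those of the whole epithelium. These intervals treat UMIs as independent. In allogeneic 1 the 80 Cxcl10 UMIs of Paneth-like cells came from 17 cells, with up to 36 in 1 cell. Classes drawn per cell gave 174 Cxcl9 and 80 Cxcl10 UMIs there, against 217 and 80 as clustered, so the excess in allogeneic 1 depends on the classing. Progenitor-like cells were above the whole epithelium in allogeneic 1 (67.2%) and below it in allogeneic 2 (61.1%). Goblet-like cells also went opposite ways, with 68.9% and 56.7%. The 142 cells of unnamed cluster 23 in allogeneic 2 had 120 UMIs of each gene.

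Outside the epithelium the balance differed in one place. The T or NK-like cells of allogeneic 1 had 17 Cxcl10 UMIs in 10 of 228 cells and no Cxcl9 UMI, so that Cxcl9 was 0% (0 to 19.5%) of the UMIs of both. Those of allogeneic 2 had 9 Cxcl9 and 8 Cxcl10 UMIs. The myeloid-like cells, 13 and 5 in number, had the highest levels of any class: 983 and 1790 CPM of Cxcl9 and 396 and 545 CPM of Cxcl10. They held 3.66% and 0.334% of the Cxcl9 UMIs of their libraries. Since these cells are so few, their levels rest on 6 and 2 cells with a Cxcl9 UMI.

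**Figure D4:**
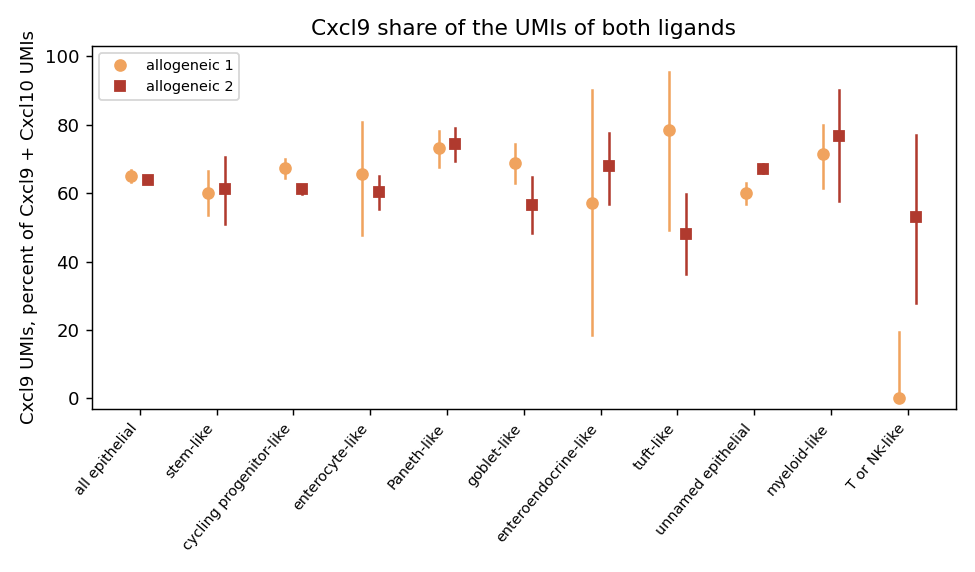
Cxcl9 UMIs as a percent of the UMIs of Cxcl9 and Cxcl10 together (y axis), by class in the 2 allogeneic libraries, with 95% exact binomial intervals. The whole epithelium sits at 64.9% and 63.9%, Paneth-like cells at 73.1% and 74.4%, and the T or NK-like cells of allogeneic 1 at 0%.

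Both ligands often came from the same cell. At 2000 UMIs, 37 of 1630 epithelial cells of allogeneic 1 had both, where independent detection of the 2 genes would give 7.93, a ratio of 4.67. In allogeneic 2, 249 of 3970 had both against 84.4, a ratio of 2.95. Of the cells with Cxcl10, 50.7% and 54.6% also had Cxcl9, and of those with Cxcl9, 20.9% and 33.9% also had Cxcl10. Since the classes differ in level, the count was repeated within them. In progenitor-like cells 16 cells had both against 4.76 in allogeneic 1, and 129 against 76.3 in allogeneic 2, ratios of 3.36 and 1.69. Before thinning, this class held 232 cells of cluster 8 and 152 of cluster 11 in allogeneic 1, and 893 of cluster 11 in allogeneic 2. Cluster 11 had both ligands among its leading genes, so level could also differ within the class, most of all in allogeneic 1. Paneth-like cells had 4 against 0.754 and 8 against 3.22. Enterocyte-like cells of allogeneic 2 had 8 against 2.14, and enteroendocrine-like cells of allogeneic 2 had 1 against 1.05. Counts in the named classes other than progenitor-like were 8 or fewer.

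Cxcl9-positive progenitor-like cells were compared with the Cxcl9-negative cells of the same class and library after thinning, as a description. The genes are those with the largest ratio of mean UMIs in the weaker of the 2 pools among 3753 genes, for which the median was 0.883. Cxcl10 led, at 17.1-fold in allogeneic 1 and 5.77-fold in allogeneic 2. It was followed by Ubd, a ubiquitin-like modifier (3.38 and 2.68), Gbp3, an interferon-induced GTPase (2.68 and 3.53), and H2-DMb2, a chaperone of class II peptide loading (3.19 and 2.52). Next were AW112010 (2.29 and 2.35) and Csrp1 (6.45 and 2.22). Casp4, a caspase that senses bacterial endotoxin, was at 2.435 and 2.12, and Icam1, an adhesion molecule for leukocytes, at 3.57 and 2.005. The ratios rest on 69 positive and 308 negative cells in allogeneic 1 and on 306 and 524 in allogeneic 2. In allogeneic 1 the class joined clusters 8 and 11, so positive and negative cells could differ in cluster too. In the enterocyte-like class only 5 cells of allogeneic 1 were positive, and no gene is named there.

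Detection was also split by single marker genes, without any clustering. Thinned epithelial cells with a UMI of Top2a, a proliferation gene, had Cxcl9 in 16.0% and 40.3% in allogeneic 1 and 2, against 9.08% and 13.95% of cells without one. Cells with Lgr5, the stem cell receptor, had Cxcl9 in 12.9% (7.04 to 21.0%) against 10.7% in allogeneic 1, a difference within counting error, and in 47.8% (35.4 to 60.3%) against 18.0% in allogeneic 2. Cells with Alpi, the brush-border alkaline phosphatase of mature enterocytes, had Cxcl9 in 1 of 44 (2.27%) and 3 of 327 (0.917%), against 11.1% and 20.1% of cells without it. The Alpi interval of allogeneic 1, 0.0575 to 12.0%, holds the 11.1%, so that difference lies within counting error. In allogeneic 2 the interval was 0.190 to 2.66%. Cells with Apoa1, another enterocyte marker, had Cxcl9 in 19 of 434 (4.38%) and 133 of 2084 (6.38%), against 13.2% and 31.9%. Cells with Ly6a, an interferon-inducible surface protein, had Cxcl9 in 18.8% and 22.5%, against 4.36% and 3.77%.

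The receptor for the ligands and their usual inducer were detected in the lymphocytes and in very few epithelial cells. After thinning to 1000 UMIs, Cxcr3 was detected in 1 of 13, 1 of 33, 8 of 228 (3.51%) and 5 of 200 (2.50%) T or NK-like cells in library order. In the epithelium it was detected in 0, 0, 0 and 1 cells. Ifng, which encodes interferon gamma, was detected in 1 of 13 and 2 of 33 T or NK-like cells of the syngeneic pools, and in 33 of 228 (14.5%) and 48 of 200 (24.0%) of the allogeneic pools. The syngeneic intervals of 0.195 to 36.0% and 0.743 to 20.2% both hold the share of allogeneic 1, while that of allogeneic 2 lies above the second of them and within the first. No thinned epithelial cell had an Ifng UMI, and without thinning 2 cells of allogeneic 2 had one, while Cxcr3 was in 1 cell each of syngeneic 1 and allogeneic 2. Dpp4, a membrane protease that trims CXCR3 ligands, stood at 491, 504, 834 and 471 CPM in enterocyte-like cells and at 24.4, 20.7, 12.6 and 7.70 CPM in progenitor-like cells, in library order. Progenitor-like cells thus had less Dpp4 than enterocyte-like cells in all 4 libraries.

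Immune transcripts in the epithelial cells were few. The 13 T or NK markers summed to 15.6, 2.39, 18.3 and 11.3 CPM in the epithelium in library order. The 12 myeloid markers summed to 7.18, 9.47, 7.34 and 3.74 CPM. Those myeloid markers at 0 numbered 6, 5, 3 and 1, among them Adgre1, a macrophage marker, in every library. C1qb and C1qc were at 0 in both syngeneic pools and above 0 in both allogeneic pools. A UMI of an immune marker was present in 6.40%, 6.77%, 10.2% and 4.84% of epithelial cells. When these cells were left out, the epithelial level of Cxcl9 was 1.85, 2.39, 134.5 and 268 CPM and that of Cxcl10 was 1.65, 1.81, 75.7 and 150 CPM.

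The rest of the pathway was read from sums of counts per class and library, tested with edgeR's quasi-likelihood test and adjusted over all genes tested. The p-values measure only the spread between pools. The gene lists below were chosen with earlier results of these data known, so counts within them are a description. Of the genes tested, 0.158% were called across all epithelial cells, 1.49% in stem-like, 2.39% in progenitor-like and 2.94% in enterocyte-like cells. Called higher were 0.141%, 1.12%, 1.41% and 1.77%, and called lower were 0.0166%, 0.367%, 0.979% and 1.16%. These counts depended on single libraries: leaving out 1 library at a time gave 99 to 5581 genes against 19 for all epithelial cells, 50 to 996 against 130 for stem-like, 105 to 3707 against 239 for progenitor-like and 132 to 3742 against 250 for enterocyte-like cells. The largest count came without allogeneic 1 in 3 of these 4 comparisons, and without allogeneic 2 in stem-like cells. The progenitor-like and enterocyte-like classes drew on different clusters in different libraries, so their fold changes can also hold a change of cluster. How much they do was not tested.

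Of the genes that carry the interferon gamma signal, at most 2 of 10 passed the test in any comparison. Of 10 listed genes, among them those for the receptor, its kinases, Irf1 and inhibitors of the signal, none passed across all epithelial cells, where edgeR gave 5 an unadjusted p under 0.05 and DESeq2 called 2. In stem-like cells 2 rose: Irf1, the transcription factor, by 1.19 on the log2 scale (SE 0.25, edgeR adjusted p = 0.020) and Socs1, a feedback inhibitor, by 1.48 (SE 0.35, edgeR adjusted p = 0.041). DESeq2 called none of the 10 in stem-like cells and 3 in progenitor-like cells. In progenitor-like cells Socs1 rose by 2.38 (SE 0.47, edgeR adjusted p = 0.022) and Socs3, another feedback inhibitor, fell by 1.68 (SE 0.33, edgeR adjusted p = 0.020). Of all genes tested, 1.49% were called in stem-like and 2.39% in progenitor-like cells. None of the 10 passed in enterocyte-like cells, where edgeR gave 3 an unadjusted p under 0.05 and DESeq2 called none.

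Of 11 TNF and NF-kB genes, 1 of 9 tested rose in stem-like cells, Nfkbia, the inhibitor that NF-kB induces, by 1.29 on the log2 scale (SE 0.25, edgeR adjusted p = 0.0089). In progenitor-like cells 1 of 11 rose, Nfkb2, a subunit of NF-kB, by 2.11 (SE 0.43, edgeR adjusted p = 0.024). By edgeR, 5 of these 9 and 6 of these 11 had an unadjusted p under 0.05. Of all genes tested, 1.12% were called higher in stem-like and 1.41% in progenitor-like cells. Of 12 type I and III interferon genes, 1 of 8 tested rose in progenitor-like cells and 1 of 9 in enterocyte-like cells, in both cases Irf7, the amplifier of type I interferon, by 2.33 and 2.18 (edgeR adjusted p = 0.0082 and 0.017). By edgeR, 2 of these 8 and 3 of these 9 had an unadjusted p under 0.05. In enterocyte-like cells 1.77% of all genes tested were called higher. Ifnb1 had no UMI in the epithelium of any library.

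Among 21 other chemokines, those tested did not move as a block. Log2 fold changes were positive for 6 of 12 in all epithelial cells and 1 of 2 in stem-like cells. They were positive for 6 of 8 in progenitor-like and 2 of 7 in enterocyte-like cells. In progenitor-like cells 2 of 8 rose and 1 fell, where 1.41% and 0.979% of all genes were called higher and lower. None passed in all epithelial or enterocyte-like cells, where edgeR gave 5 and 1 an unadjusted p under 0.05. Cxcl16, a membrane-bound chemokine for CXCR6-bearing T cells, stood at 1.34, 0.450, 17.7 and 25.5 CPM in library order and rose by 4.602 on the log2 scale (SE 0.56, edgeR adjusted p = 0.0014). Ccl8 had no UMI in the syngeneic pools and 4.596 and 7.54 CPM in the allogeneic ones. Ccl25, which guides lymphocytes into the small intestine through CCR9, stood at 235, 200.5, 54.7 and 36.75 CPM and fell by 2.17 (SE 0.27, edgeR adjusted p = 0.0018). In stem-like cells Ccl25 fell by 2.20 (SE 0.31, edgeR adjusted p = 0.00046).

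The other targets of interferon gamma were called higher in each of the 4 comparisons, in unequal numbers that differed between edgeR and DESeq2. By edgeR, of 31 listed genes, 20 of 28 tested rose in stem-like cells, 20 of 30 in progenitor-like, 6 of 26 in enterocyte-like and 6 of 31 across all epithelial cells, and none fell. Their median log2 fold change was 1.64, 1.75, 1.29 and 1.87, against medians of all genes of 0.023, 0.0041, 0.0066 and 0.028. Of all genes tested, 1.12%, 1.41%, 1.77% and 0.141% were called higher in the same order. Because the list was chosen with earlier results of these data known, its counts are no independent support. Ido1 stood at 0, 0.450, 216.5 and 428 CPM in progenitor-like cells. Gbp2, a GTPase of cell-autonomous defence, stood at 9.36, 5.84, 142 and 183 CPM there and rose by 4.52 on the log2 scale (SE 0.37, edgeR adjusted p = 9.1e-05). Of 20 genes shared with the type I interferon response, 3 of 9 tested rose in stem-like, 8 of 12 in progenitor-like, 7 of 16 in enterocyte-like and 1 of 18 in all epithelial cells. DESeq2 called 17, 23, 13 and 27 of the 31 in stem-like, progenitor-like, enterocyte-like and all epithelial cells.

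Early-response genes, which also rise with cell stress and dissociation, moved beside these lists in the same classes. Of 12, 5 rose in stem-like and 5 in progenitor-like cells (DESeq2 called 2 and 5), where 1.12% and 1.41% of all genes were called higher. Hspa1a, a heat shock protein gene, was up by 3.36 and 3.92 on the log2 scale (SE 0.51 and 0.55, edgeR adjusted p = 0.00095 and 0.0043). The stem-like class included cluster 4, with 8, 4, 54 and 6 cells in library order and Egr1, Atf3, Fos and Jun among its leading genes. How much of the stem-like rise came from that cluster was not tested. None of the 12 passed in enterocyte-like cells, where edgeR gave 7 an unadjusted p under 0.05 and DESeq2 called 2. The part of early-response genes in the ligand levels was not tested.

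**Figure D5:**
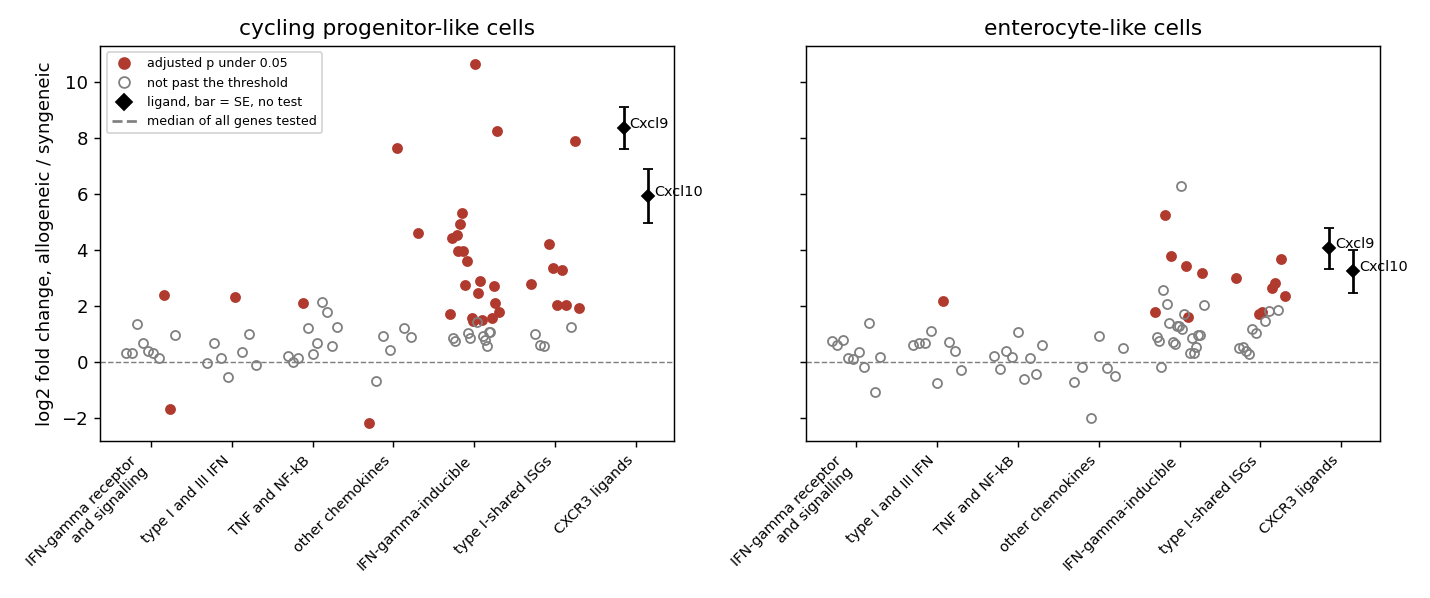
Log2 fold change (allogeneic over syngeneic, y axis) of the genes of 6 pathway lists and the 2 ligands in progenitor-like (left) and enterocyte-like (right) cells. Filled points passed an adjusted p of 0.05, open points did not, and diamonds are Cxcl9 and Cxcl10 with their SE and no test. In progenitor-like cells the ligands sit at 8.34 and 5.94, and the median of all genes (dashed) is 0.0041. The drawn value of a gene with no syngeneic UMI, such as Ccl8, depends on the fit's prior count.

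Across 28 points (7 classes in 4 libraries), the gene whose log2 level was most like that of Cxcl9 among 5450 genes was Cxcl10, with a Pearson r of 0.94. Next came Ly6a (0.92), Gbp2 (0.92), Ido1 (0.90) and H2-Q7 (0.89). For Cxcl10 the order was Cxcl9 (0.94), Ly6a (0.94), Ido1 (0.91), Irgm1 (0.89) and Gbp2 (0.89). The points share libraries, depth and the difference between groups, so these values describe a common pattern and carry no test.

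The testable genes around the ligands on the chromosome did not pass the test. Of 6 protein-coding neighbours, 4 were abundant enough to test: Naaa, Sdad1, Nup54 and Scarb2. None passed in all epithelial, stem-like, progenitor-like or enterocyte-like cells, and DESeq2 called none. The share of all genes called there was 0.158%, 1.49%, 2.39% and 2.94%, so no call among 4 genes cannot set the locus apart. By edgeR, 1 of the 4 had an unadjusted p under 0.05 in each, and in all epithelial and stem-like cells it was Scarb2. Scarb2 was higher there by 0.688 and 0.857 on the log2 scale. Sdad1, the nearest tested gene to Cxcl9, stood at 25.0, 21.8, 31.9 and 19.0 CPM in the epithelium in library order. Art3, which overlaps Cxcl10 on the other strand, was too low to test and stood at 0.241, 0.149, 0.587 and 0.452 CPM.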

How the data were processed

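Droplet single-cell libraries of crypt cells from 2 syngeneic and 2 allogeneic pools were used. The deposited values are raw UMI counts for each cell. The submitters' processing notes name Cell Ranger 2.1.1 and mm10, and the file headers give software version 3.1.0. The annotation release is not given in the sources used here. Replicate numbers follow record order and pair nothing.

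Barcodes needed 500 genes, 1000 UMIs and a mitochondrial share within 20%, and 89 of 12285 were removed as Scrublet doublets. Cells were clustered with scanpy 1.11.5 (2000 variable genes without the response lists, 30 components, 15 neighbours, Leiden resolution 1) and clusters were named where a marker list of at least 3 detected genes had the highest mean z-score of at least 0.5 and no conflict with the leading genes. CPM are UMIs scaled to 1000000 UMIs of the class. Shares used cells thinned to 2000 UMIs. Class sums were fitted with edgeR 4.0.16 (TMM, filterByExpr, quasi-likelihood, Benjamini-Hochberg over all genes). DESeq2 1.42.0 was an alternative. The fits and the likeness search were tested on simulated data. Limits for a count of 0 use 3 counts, and intervals are 95% exact.

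The members and gene lists were chosen with earlier results of these data known. Genes named beyond the members are members of those lists, the 5 most alike genes, the leading ratios in positive cells and the neighbours on the chromosome. Total depth was 14961466 to 26677842 UMIs per library. Where nothing says how pools were drawn, p-values measure only the spread between pools.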

Additional observations from a re-analysis of the deposited data

Results flagged for a closer look

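Barcodes removed by the filters, which enter no comparison of the report, also held ligand transcripts above the syngeneic level. Cxcl9 stood at 1.22 and 5.41 CPM in the removed barcodes of the syngeneic pools and at 37.48 and 121.3 CPM in those of allogeneic 1 and 2. Cxcl10 stood at 9.12 and 16.9 CPM in the syngeneic and at 36.69 and 85.21 CPM in the allogeneic pools. Median depth in these barcodes was 1521, 960.5, 1230 and 848 UMIs in library order. No group is large enough for a test of single outlying libraries.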

How the results depend on the processing

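All 79 recomputed log2 fold changes of Cxcl9 and Cxcl10 (all epithelial, stem-like, progenitor-like and enterocyte-like cells) were positive, and no result reversed. Cxcl10 in enterocyte-like cells has no value at the 10% mitochondrial limit, where allogeneic 1 kept 45 such cells. With 1 library left out, the lone pool of a group is assumed to vary like the other group. Across all epithelial cells these fits gave log2 fold changes of 5.901 to 7.312 for Cxcl9 and 5.162 to 6.641 for Cxcl10, the lowest without allogeneic 2 and the highest without allogeneic 1. Counts of called genes ran from 99 to 5581 (all epithelial), 50 to 996 (stem-like), 105 to 3707 (progenitor-like) and 132 to 3742 (enterocyte-like). With no filter on low counts they were 599, 258, 574 and 1057 in the same order, and with DESeq2 336, 53, 223 and 405. A 10% mitochondrial limit gave 6 for all epithelial and 779 for enterocyte-like cells, and classes drawn per cell gave 63 for stem-like and 158 for enterocyte-like cells. The cause was not tested. The mean allogeneic share of epithelial cells with Cxcl9 was 14.7% at 2000 UMIs, 9.083% at 1000 and 22.62% unthinned, an order set by depth. The co-detection ratio was 3.81, and 7.979 when 2 UMIs were required. No paired analysis was possible because the replicate numbers are record order only.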
